A study of Mus musculus with 6 samples.

Results

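The 42 genes described here encode the proteins that license replication origins in mouse cells and copy DNA at the fork. They were taken by gene symbol from a list of S-phase genes, chosen with earlier results of these data known. All 42 were found among the 46095 symbols of the deposited table. Messenger RNA was profiled in 3T3-L1 cells, a fibroblast line from mouse embryos that turns into fat cells under hormonal induction. All 6 samples were labelled adipocytes and were taken 8 days after differentiation. The 3 untreated samples are compared with 3 given Smilax glabra flavonoids, plant polyphenols, at 0.125 μg/mL. No genotype, vehicle or duration of treatment is named for either group. Separate cultures are not stated for the 3 samples of a group, so p-values reflect only the spread among these samples, and it may be technical.

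Before a cell copies its DNA, the origin recognition complex, Cdc6 and Cdt1 load the MCM2-7 ring onto origins, a step called licensing. In S phase Cdc45 and GINS turn that ring into the active helicase, primase and the polymerases synthesize DNA behind it, and the PCNA clamp, its RFC loader, the RPA complex and Lig1 complete the fork. In preadipocytes these genes are switched on during the rounds of division that precede fat storage, largely through E2F transcription factors, and mature fat cells, which do not divide, usually express them weakly.

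Levels are given in FPKM, fragments scaled by transcript length and library depth, so that genes can be compared with each other. The whole fragments behind the values were recovered and totalled 21952064 to 26355863 per library. Of 15 listed markers of mature adipocytes, 8 were below 1 FPKM in every library, among them Adipoq, Plin1 and Cd36. The other 7 included Fabp4, with means of 219.3 FPKM untreated and 169.7 FPKM treated, and Lpl, with 163.3 and 262.2 FPKM. Pparg averaged 10.8 and 11.6 FPKM. The 15 markers summed to 420.7 to 450.0 FPKM in untreated and 395.7 to 560.4 FPKM in treated libraries, mostly from Fabp4 and Lpl. None of the 7 tested was called by limma at an adjusted p under 0.05. Over all tested genes, 4.86% were called higher and 5.13% lower. Of 15 preadipocyte and fibroblast markers 14 were tested, with 1 called higher (Pi16) and 5 lower (Lum, Dcn, Sfrp2, Thy1 and S100a4). The 15 summed to 7109.1 to 7829.0 FPKM untreated and 5261.0 to 5616.7 FPKM treated. Macrophage markers were scarce: Ptprc, Tyrobp and Aif1 were listed at 0 in all 6 libraries, and the 11 listed genes summed to 14.2 to 19.1 and 25.9 to 28.3 FPKM. Of the 3 tested, Cd14, a receptor for bacterial lipopolysaccharide, was called higher, at 15.8, 12.6 and 9.55 FPKM untreated and 24.5, 22.2 and 23.4 FPKM treated (log2 change 0.86, limma adjusted p = 0.0169), and it made up most of that sum. The part of these markers in the results below was not tested.

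None of the 42 replication genes passed the threshold between treated and untreated cells. In the same fit, 4.86% of the 11464 tested genes were called higher with flavonoids and 5.13% lower (limma on log2(FPKM + 1), adjusted p under 0.05 by Benjamini-Hochberg). All 42 genes had a mean of at least 1 FPKM and were tested. Their lowest limma adjusted p was 0.0632, for the thymidine kinase gene Tk1, and 5 genes lay under 0.1. At an unadjusted p under 0.05, limma gave 2 higher and 7 lower, against 12.8% and 14.3% of all tested genes. A second tool, limma's voom on the recovered fragments, also called 0 (4.78% higher and 5.35% lower over all genes), with 2 higher and 7 lower at an unadjusted p under 0.05 (12.5% and 14.7% of all genes). Averaged over the 6 libraries, Pcna had the highest level, at 203.3 FPKM, and Cdc45 the lowest, at 1.12 FPKM. In all, 33 of the 42 genes averaged at least 10 FPKM, and 29 had at least 1000 fragments in every library.

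**Figure D1:**
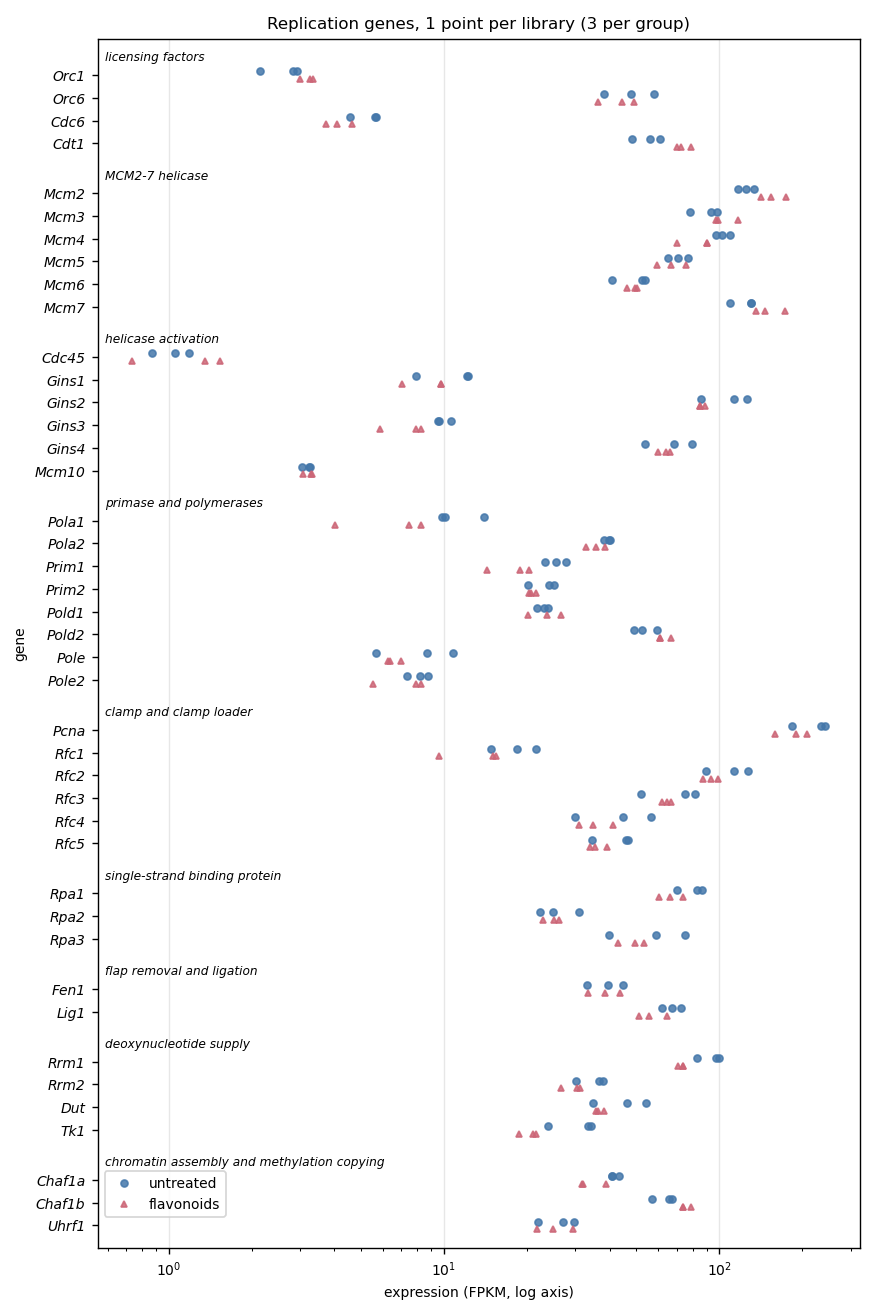
Level of each of the 42 replication genes in each library, in FPKM on a log axis, grouped by role; each point is 1 library, coloured by group. Levels run from 1.12 FPKM (Cdc45) to 203.3 FPKM (Pcna) on average, and the points of the 2 groups overlap for 29 genes.

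Estimated changes were small in both directions. The fitted log2 change was negative for 32 genes and positive for 10, with a median of -0.18 and a range from -0.73 to 0.42, beside a median of -0.02 over all tested genes. Since 76.2% of the estimates and 52.6% of those of all genes were negative, the set as a whole sat slightly low, a description for which no test was made. The 95% interval of the change lay within a 2-fold difference either way for 41 genes, the exception being Pola1, and within 1.5-fold for 24. A gene that missed the threshold is therefore not shown to be equal in both groups. In bulk RNA, fewer cells in S phase and less RNA per cell cannot be told apart. Adding 1 before taking logs shrinks the estimates of weak genes such as Cdc45.

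The 3 treated values lay above all 3 untreated values for 6 genes (Orc1, Cdt1, Mcm2, Mcm7, Pold2 and Chaf1b) and below them for 7 (Mcm4, Gins3, Pola1, Prim1, Rrm1, Tk1 and Chaf1a). These are 14.3% and 16.7% of the 42 genes, near the 17.0% and 17.3% of all tested genes that separated in the same way. The other 29 genes overlapped between groups.

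**Figure D2:**
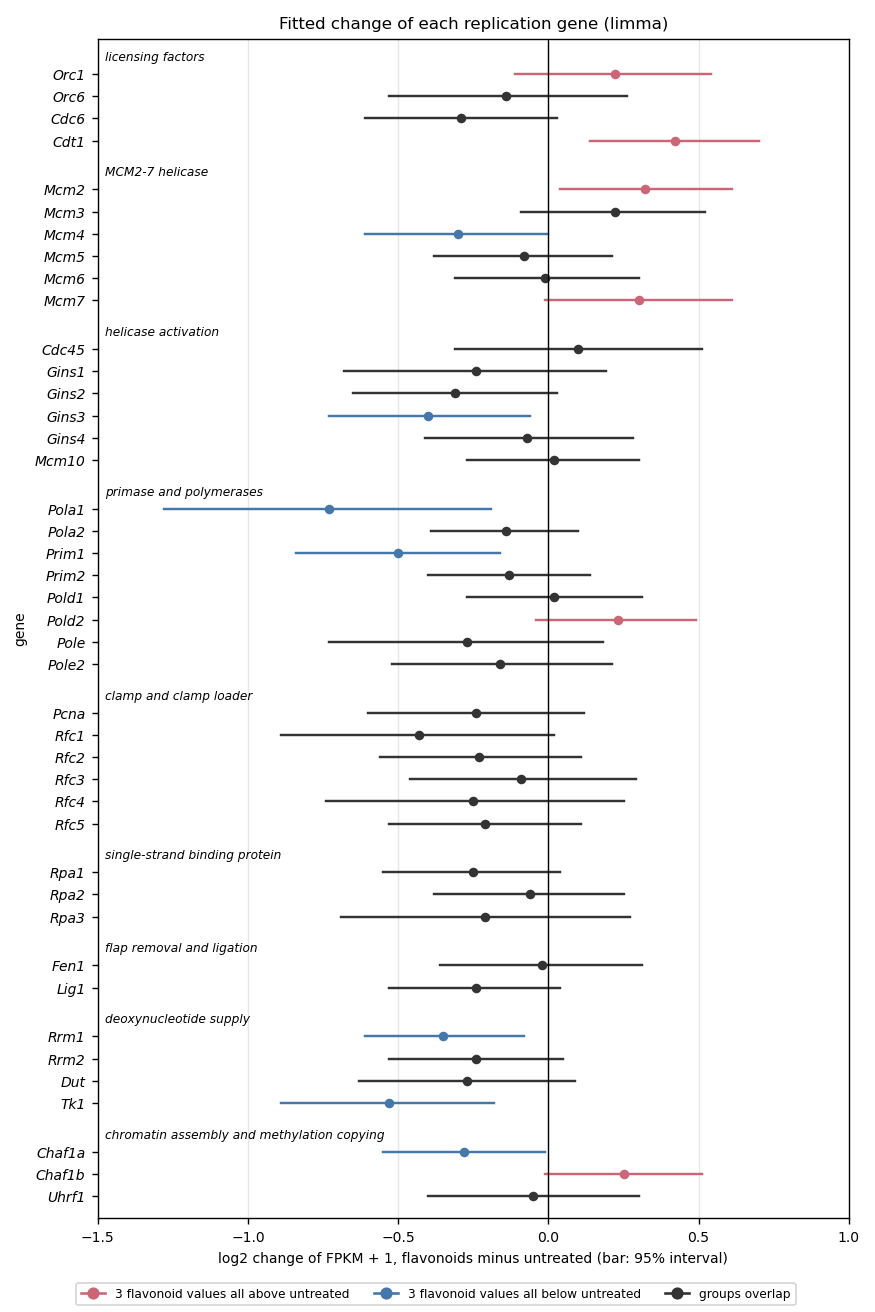
Fitted log2 change of each replication gene, flavonoids minus untreated, with its 95% interval from limma, ordered by role. Colours mark the 6 genes whose 3 treated values were all above and the 7 whose values were all below the untreated ones; most bars cross 0.

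The licensing factors did not move as a block. Cdt1, which brings the MCM ring to the origin (chromosome 8, 122568015 to 122573554, GRCm38, as are all positions given), measured 60.8, 56.0 and 48.3 FPKM in untreated replicates 1, 2 and 3 and 70.4, 72.4 and 78.7 FPKM in treated ones. Every treated library was above every untreated one, with means of 55.0 ± 6.30 and 73.8 ± 4.33 FPKM (SD, n = 3 per group). The log2 change of 0.42 (SE 0.12) was the highest of the 42 genes and narrowly missed the threshold (limma adjusted p = 0.0642). Orc1, the ATPase of the origin recognition complex, measured 2.93, 2.82 and 2.15 FPKM untreated and 3.35, 3.25 and 3.00 FPKM treated, apart but by only 1.22-fold (limma adjusted p = 0.374). Cdc6, the ATPase that loads MCM together with Cdt1, had the opposite sign: 5.67, 5.63 and 4.55 FPKM untreated and 3.74, 4.07 and 4.64 FPKM treated. Its groups overlapped because treated replicate 3 exceeded untreated replicate 3 (log2 change -0.29, SE 0.14, limma adjusted p = 0.233). Orc6, a smaller subunit of the recognition complex, overlapped widely, at 38.2 to 57.8 and 36.3 to 49.1 FPKM.

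Geminin, encoded by Gmnn, binds Cdt1 and blocks licensing outside G1. It is on the list of other replication genes and was singled out here after its values were seen. Gmnn measured 22.1, 19.2 and 10.9 FPKM untreated and 9.45, 11.0 and 10.4 FPKM treated, a lower mean that was not called (log2 change -0.65, SE 0.23, limma adjusted p = 0.109). The ratio of Cdt1 to Gmnn was 2.75, 2.92 and 4.43 in untreated and 7.45, 6.56 and 7.53 in treated libraries. The ratio was thus higher in each treated library, with untreated replicate 3 nearest to them, and no test was made of it because it was chosen on these values.

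The 6 subunits of the MCM2-7 ring, which form a complex with 1 copy of each, split evenly into 3 positive and 3 negative estimates, of which that of Mcm6 turned positive under median-ratio scaling and with the length trend removed. Mcm2 (chromosome 6, 88883474 to 88898780) measured 116.4, 133.9 and 125.2 FPKM untreated and 141.5, 154.5 and 175.3 FPKM treated, higher in each treated library (log2 change 0.32, SE 0.13, limma adjusted p = 0.143). Mcm7 (chromosome 5, 138164583 to 138172422) had 130.1, 130.0 and 108.9 FPKM against 136.1, 146.3 and 172.4 FPKM, again without overlap (0.30, SE 0.14, limma adjusted p = 0.201). Exons of 8 of the 42 genes overlap those of another tested gene, among them Mcm7 with Ap4m1 and Cops6, Gins2 with Gse1, Tk1 with Afmid and Chaf1a with Ubxn6. Reads of these genes may be shared, since the use of strand in counting is not given. Mcm4 (chromosome 16, 15623897 to 15637400) ran the other way, with 102.0, 109.5 and 97.4 FPKM untreated and 90.4, 90.3 and 70.2 FPKM treated (-0.30, SE 0.13, limma adjusted p = 0.183). Treated replicate 3 was the highest library for Mcm2 and Mcm7 and the lowest for Mcm4. Mcm3, Mcm5 and Mcm6 overlapped between groups. Mcm6 had the estimate nearest to 0 of all 42 genes, at 49.0 ± 7.19 and 48.4 ± 2.16 FPKM (SD, n = 3 per group), with a 95% interval of the log2 change from -0.31 to 0.30.

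Because the ring takes its subunits in equal numbers, their shares of the summed MCM2-7 level were also compared. The sum itself overlapped, at 569.1, 597.9 and 515.4 FPKM untreated and 570.2, 607.2 and 659.2 FPKM treated. Within it, Mcm2 went from 22.4 ± 1.92% to 25.6 ± 0.902% and Mcm7 from 21.9 ± 0.876% to 24.7 ± 1.26% (SD, n = 3 per group). Mcm4 went from 18.4 ± 0.492% to 13.8 ± 2.76% and Mcm5 from 12.7 ± 0.257% to 10.9 ± 0.535%. The groups did not overlap for these 4 shares, while those of Mcm3 and Mcm6 did. Among the levels of all tested genes, 17.0% separated upward and 17.3% downward. The ratio of Mcm2 to Mcm4, chosen after the values were seen, was 1.14, 1.22 and 1.29 untreated and 1.56, 1.71 and 2.50 treated, the last value being treated replicate 3. Shares within a sum move against each other by construction, and no test was made of them.

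**Figure D3:**
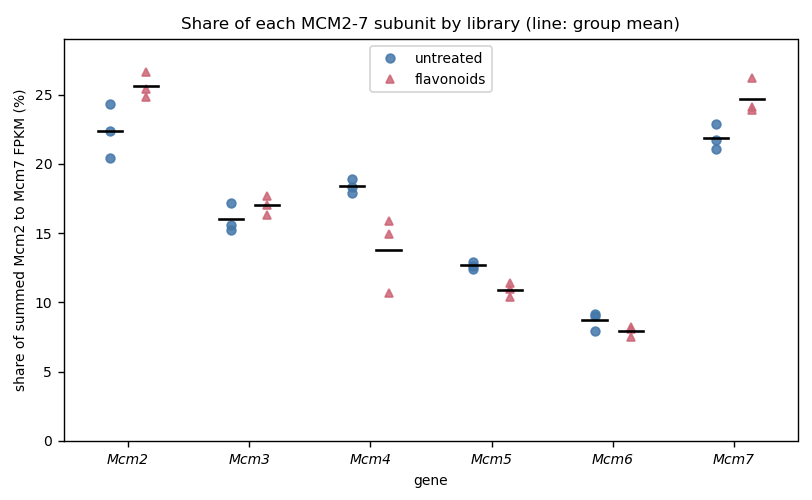
Share of each subunit in the summed FPKM of Mcm2 to Mcm7, in percent, for each library and group. Mcm2 and Mcm7 take larger and Mcm4 and Mcm5 smaller shares in the 3 treated libraries than in the 3 untreated ones, and Mcm3 and Mcm6 overlap.

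Among the genes that activate the helicase, those of the GINS complex differed more in level than in response. Gins2 and Gins4 averaged 97.2 and 65.2 FPKM over the 6 libraries, while Gins1 and Gins3 averaged 9.81 and 8.63 FPKM, although GINS holds 1 copy of each. Gins3 (chromosome 8, 95633453 to 95645060) measured 10.6, 9.53 and 9.58 FPKM untreated and 8.22, 7.94 and 5.87 FPKM treated, lower in every treated library (log2 change -0.40, SE 0.15, limma adjusted p = 0.123). Gins2 measured 126.1, 113.2 and 85.6 FPKM untreated and 84.8, 88.9 and 84.7 FPKM treated. Its groups met at untreated replicate 3, and the 3 treated values lay much closer together than the untreated ones (limma adjusted p = 0.229). Gins4 overlapped, but its share of the GINS sum was 34.2 ± 0.585% untreated and 38.2 ± 0.178% treated (SD, n = 3 per group), without overlap. The share of Gins2 separated the other way, from 55.2 ± 0.528% to 52.1 ± 1.54%, while those of Gins1 and Gins3 overlapped. Shares within a sum move against each other by construction, and no test was made of them. Among the levels of all tested genes, 17.0% separated upward and 17.3% downward. Cdc45, the helicase cofactor, had only 42 to 93 fragments per library and overlapped, as did Mcm10, which helps to start the helicase, at 3.05 to 3.25 and 3.07 to 3.31 FPKM.

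Polymerase alpha and primase, the 4-subunit enzyme that lays down the RNA-DNA primers, held the lowest estimate of the set. Pola1, its catalytic polymerase subunit (chromosome X, 93304767 to 93632155), measured 9.81, 10.1 and 14.0 FPKM untreated and 8.28, 7.44 and 4.01 FPKM treated. Untreated replicate 3 and treated replicate 3 were the extremes, and the other 4 libraries ran from 7.44 to 10.1 FPKM (log2 change -0.73, SE 0.24, limma adjusted p = 0.0901). Prim1, the catalytic primase subunit (chromosome 10, 128015168 to 128030037), measured 27.7, 25.5 and 23.2 FPKM untreated and 18.9, 20.4 and 14.3 FPKM treated, lower in every treated library by 1.43-fold in the means (log2 change -0.50, SE 0.15, limma adjusted p = 0.0691). The partner subunits Pola2 and Prim2 were 1.10-fold and 1.11-fold lower in the treated mean and overlapped. The 4 genes summed to 102.5, 99.4 and 95.6 FPKM untreated and 80.5, 84.0 and 78.2 FPKM treated, which did not overlap. Of the 5 complexes summed in this way it was the only one to separate. Besides MCM2-7, the sums overlapped for GINS (156.6 to 228.5 FPKM untreated and 157.3 to 172.7 FPKM treated), RFC (227.2 to 325.6 and 234.6 to 250.9 FPKM) and RPA (132.1 to 192.2 and 132.3 to 144.5 FPKM). Of all tested single genes, 17.3% separated downward, and no test was made of the sums.

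The genes of the 2 bulk-synthesis polymerases varied in sign. Pold2, the accessory subunit of the lagging-strand polymerase delta, measured 59.4, 52.4 and 49.0 FPKM untreated and 61.1, 60.8 and 66.7 FPKM treated, apart by 1.17-fold in the means (limma adjusted p = 0.246). Its catalytic partner Pold1 overlapped, at 21.8 to 23.9 and 20.2 to 26.6 FPKM. Pole, the catalytic subunit of the leading-strand polymerase epsilon and the longest transcript of the set, ranged from 5.64 to 10.8 FPKM within untreated libraries and only from 6.28 to 6.98 FPKM in treated ones. Pole2, its second subunit, overlapped as well.

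All 6 genes of the clamp and its loader had negative estimates, with a median of -0.24, and all overlapped between groups. Pcna, the ring that tethers polymerases to DNA, measured 234.8, 242.6 and 183.8 FPKM untreated and 190.3, 208.5 and 159.9 FPKM treated (log2 change -0.24, SE 0.16, limma adjusted p = 0.368). Untreated replicate 3 again lay inside the treated range. Pcna has named pseudogenes in the annotation, so its reads may not all be its own. Of the loader subunits, Rfc2 was the most abundant, at 101.3 FPKM on average, and Rfc1, the large subunit, the least, at 15.8 FPKM. Rfc1 had the lowest estimate among the 6 (-0.43, SE 0.20, limma adjusted p = 0.206). The small loader subunits Rfc3, Rfc4 and Rfc5 had estimates of -0.09, -0.25 and -0.21. The 3 RPA genes, whose product coats single-stranded DNA, were also all negative and overlapped, with Rpa1 at -0.25, Rpa2 at -0.06 and Rpa3 at -0.21. So did Fen1, the nuclease that trims Okazaki flaps, and Lig1, the ligase that seals them, at -0.02 and -0.24.

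Deoxynucleotide supply had the lowest median of the 9 roles, at -0.31, with 4 of 4 estimates negative. Tk1, thymidine kinase of the salvage pathway (chromosome 11, 117815526 to 117826092), measured 34.3, 33.2 and 23.8 FPKM untreated and 18.7, 21.1 and 21.6 FPKM treated. Each treated library was below each untreated one, with means of 30.4 ± 5.76 and 20.5 ± 1.56 FPKM (n = 3 each, SD), a log2 change of -0.53 with SE 0.15 (limma adjusted p = 0.0632). Rrm1, the large subunit of ribonucleotide reductase (chromosome 7, 102441695 to 102469771), measured 99.5, 96.9 and 82.7 FPKM untreated and 73.6, 73.7 and 71.0 FPKM treated, also without overlap (-0.35, SE 0.12, limma adjusted p = 0.0949). Rrm2, the S-phase subunit of the same enzyme, was 1.19-fold lower in the treated mean and overlapped, as did Dut, which removes dUTP. In every one of these 4 genes untreated replicate 3 was the lowest untreated library.

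The chromatin genes of the fork split within 1 complex. Chaf1a and Chaf1b encode subunits of chromatin assembly factor 1, which deposits histones on new DNA. Chaf1a (chromosome 17, 56040439 to 56072289) measured 40.8, 43.3 and 40.6 FPKM untreated and 31.8, 32.0 and 38.9 FPKM treated, while Chaf1b (chromosome 16, 93883901 to 93906115) measured 67.2, 65.8 and 57.1 FPKM and 73.6, 73.7 and 79.2 FPKM. Both separated by group, in opposite directions, and neither passed the threshold (limma adjusted p = 0.173 and 0.193). Uhrf1, which helps to copy DNA methylation onto the new strand, overlapped at 22.0 to 29.7 and 21.7 to 29.5 FPKM.

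Untreated replicate 3 was the library that most shaped these overlaps. Relative to each gene's mean over all libraries, the 42 genes had a median log2 deviation of 0.19, 0.18 and -0.14 in untreated and -0.08, -0.03 and -0.02 in treated libraries. Single genes of treated replicate 3 differed from the other treated libraries by -0.82 (Pola1) to 0.34 (Uhrf1) on the log2 scale. The medians of the treated libraries were alike, and that of untreated replicate 3 lay below all of them. The difference of that library from the other untreated ones followed transcript length: across the 42 genes Pearson's r with the log2 length implied by the FPKM steps was 0.80, and for untreated replicate 1 it was -0.80, both across genes of the same libraries, which are not independent replicates. Across all 11464 tested genes the values were 0.63 and -0.65. For treated replicate 3 it was 0.18 over the 42 genes, with Pola1 and Rfc1 farthest below the other treated libraries. The change between groups had an r with length of 0.04 over the 42 genes and -0.13 over all tested genes. Rpa3, the shortest transcript (implied length 642 bases), was at 39.8 FPKM in untreated replicate 3 and 74.8 FPKM in untreated replicate 1, while Pole, the longest (7176 bases), was at 10.8 and 5.64 FPKM.

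**Figure D4:**
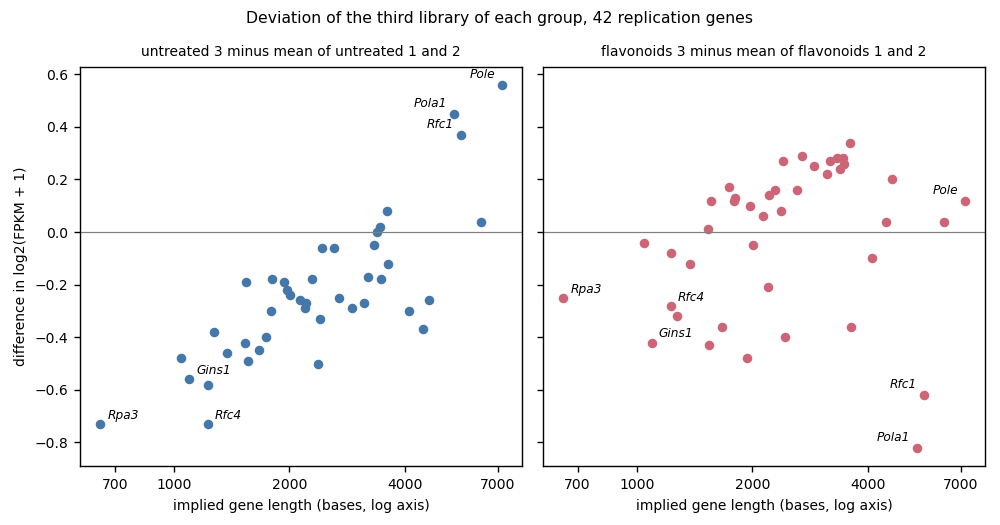
Log2 difference of replicate 3 from the mean of replicates 1 and 2 against implied transcript length on a log axis, for the 42 replication genes, untreated on the left and flavonoids on the right. Untreated replicate 3 rises with length (r = 0.80), and flavonoids replicate 3 has no straight trend (r = 0.18), with Pola1 and Rfc1 lowest.

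When each library's smooth trend over length was removed, 2 of the 42 genes were called higher, Mcm2 and Cdt1, and 5 lower, Gins2, Pola1, Prim1, Rrm1 and Tk1. This setting also called more of all tested genes, 12.0% higher and 9.94% lower, and the 42 genes stood at 4.76% and 11.9%. Tk1 then had a limma adjusted p of 0.00605 and Cdt1 of 0.00912, with log2 changes of -0.54 and 0.42 that hardly differed from those above. Single libraries mattered in the same way. Without untreated replicate 3, 5 genes were called lower (Gins2, Prim1, Rrm1, Dut and Tk1; 6.31% of all genes) and 0 higher (5.56% of all genes). Without untreated replicate 1, Cdt1 was called higher and Pole lower (7.65% and 7.23% of all genes). Leaving out any of the other 4 libraries gave no call among the 42. In those fits only 0.559% to 2.11% of all genes were called higher and 0.664% to 2.37% lower.

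The promoters of these genes are shown because E2F binding sites are the shared feature for which the group is best known. Windows of 250 bases before and 50 after each RefSeq start on GRCm38.p6 were matched to 35 of the 42 genes. The others were Mcm4, Gins1, Gins2, Gins4, Prim2, Pole and Rfc2. The 35 genes had 41 windows, and 5 of them had more than 1. A gene was counted if any of its windows matched. The letters TTTCCCGC, TTTGGCGC, TTTCGCGC and TTTGCCGC, on either strand, were found in 14 of the 35 (40.0%), in 9 of 35 other replication genes (25.7%) and in 704 of 27025 genes in all (2.6%). The site nearest to the start of each of the 14 is given 5′ to 3′ with up to 10 bases on each side, read on the strand of the motif, with the matched letters in capitals.
Orc1: ggagaaaactTTTCGCGCcactaaccga
Cdc6: ccccaggcgaTTTCCCGCtctccaccgg
Cdt1: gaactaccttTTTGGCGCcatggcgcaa
Mcm3: cttcccaagtTTTCCCGCcacggaagtt
Mcm5: ggctggacgtTTTGGCGCgaaagttctt
Mcm6: attggacgggTTTGGCGCgaagtagctc
Mcm7: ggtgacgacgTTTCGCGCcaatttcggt
Gins3: tcaaactcgcTTTCCCGCgccgcactcg
Pola1: cgggagtgcaTTTGGCGCcctgtgatga
Pold1: gctTTTCCCGCcacaagatac
Pole2: atgttcgcgaTTTGGCGCcaccgccgac
Rfc3: acagtagagtTTTCCCGCgagcgcgaaa
Lig1: gccacacagaTTTCGCGCgcactttggc
Uhrf1: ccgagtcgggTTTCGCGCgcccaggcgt
A match of these letters is a description and not a measured binding site. The nearest letters lie after the start in Cdt1, Mcm3, Mcm7, Pold1, Pole2, Rfc3 and Lig1, and before it in the other 7 genes. More than 1 of the 20 matches was held by each of Mcm3, Mcm5, Mcm6, Mcm7 and Rfc3. Mcm7 and Rfc3 also had a match before the start. The nearest letters of Mcm7 overlap a CCAAT box. Mcm7, Lig1 and Uhrf1 each also had a window without E2F letters.

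E2F matches did not mark 1 direction of change. The 14 genes with a match include the highest estimate, Cdt1, and the lowest, Pola1. The median log2 change was -0.07 over these 14 genes and -0.21 over the 21 genes with a promoter and no match, a comparison for which no test was made. Mcm6, whose level was nearest to equal in the 2 groups, and Pola1, whose estimate was lowest, are shown with the 250 bases before their starts, on the gene's strand. Mcm6 is at chr1:128359706-128359955 (minus strand) and Pola1 at chrX:93632156-93632405 (minus strand), both on GRCm38.p6, with E2F matches of either strand in capitals.
Mcm6: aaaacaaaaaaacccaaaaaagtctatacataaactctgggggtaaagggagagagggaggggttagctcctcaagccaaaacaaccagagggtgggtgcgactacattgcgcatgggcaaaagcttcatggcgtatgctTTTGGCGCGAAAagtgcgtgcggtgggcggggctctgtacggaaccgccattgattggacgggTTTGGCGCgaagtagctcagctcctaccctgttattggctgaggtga
Pola1: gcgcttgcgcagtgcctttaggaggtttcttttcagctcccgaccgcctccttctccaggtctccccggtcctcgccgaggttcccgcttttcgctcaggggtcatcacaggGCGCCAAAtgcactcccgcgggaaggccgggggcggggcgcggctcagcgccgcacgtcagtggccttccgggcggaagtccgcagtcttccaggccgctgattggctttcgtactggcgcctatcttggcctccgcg
Mcm6 has 3 matches in this stretch, a pair of which overlap on opposite strands, and Pola1 has 1. Their log2 changes were -0.01 and -0.73.

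Motifs of later cell cycle genes were counted in the same windows. The CHR letters TTTGAA or TTCGAA, bound by the DREAM and MuvB complexes at genes of G2 and mitosis, were in 7 of the 35 replication promoters (20.0%), in 24 of 31 mitotic promoters (77.4%) and in 21.7% of all. The CCAAT box, searched as CCAAT on both strands, was in 23 of 35 (65.7%), 24 of 31 (77.4%) and 41.1%. E2F letters were in 3 of 31 mitotic promoters (9.68%).

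Mitotic genes, which act after replication is complete, are set beside the replication genes because the 2 programs follow each other in 1 cell cycle. Of 36 tested mitotic genes, 17 fell with flavonoids and 0 rose, against 5.13% and 4.86% of all tested genes. Their median log2 change was -0.68, and all 36 estimates were negative. This list and those below were chosen with earlier results of these data known, so such counts are descriptions. Prc1, which bundles spindle midzone microtubules, fell from 30.0 ± 1.95 to 17.3 ± 2.56 FPKM (n = 3 each, SD), a log2 change of -0.77 with SE 0.14 (limma adjusted p = 0.0117). Aurkb, a kinase of chromosome segregation, measured 17.8, 18.3 and 15.5 FPKM untreated and 9.71, 10.3 and 11.1 FPKM treated (limma adjusted p = 0.0122). Top2a, the topoisomerase that untangles sister chromatids, and Kif23, a kinesin of cell division, fell by 1.05 and 0.84 on the log2 scale (limma adjusted p = 0.0129 and 0.0133). The called count depended on single libraries: it was 0 without untreated replicate 2 and 0 without treated replicate 1, 7 without treated replicate 2 and 9 without treated replicate 3. Lower calls over all genes dropped in the same settings, to 0.664%, 1.04%, 1.81% and 2.37%. The mitotic count was 4 with the replicate block (2.07% of all genes) and 4 with no filter (1.46%). With each of the 6 libraries left out in turn the median lay between -0.67 and -0.57, and 29 mitotic genes were called with the length trend removed. Whether the change of mitotic genes differs from that of replication genes was not tested.

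**Figure D5:**
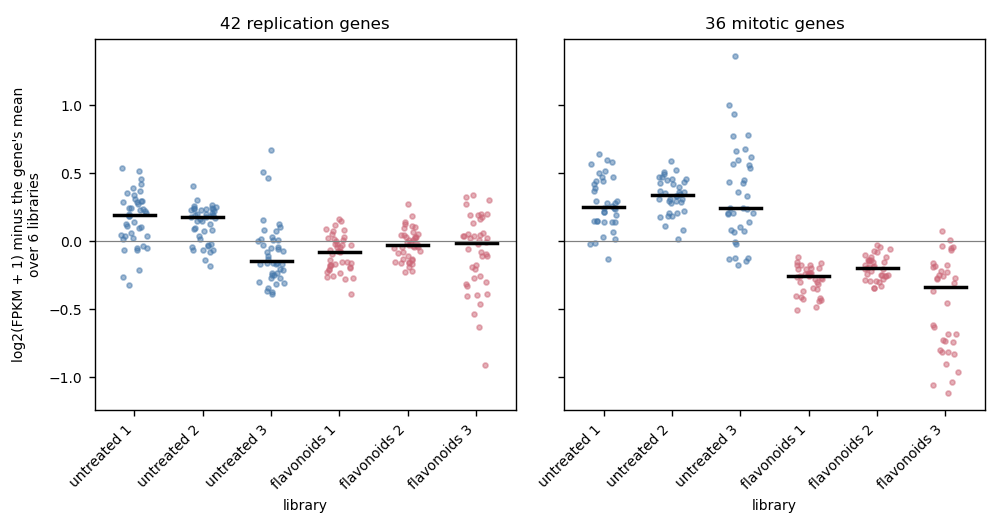
Log2(FPKM + 1) of each of the 42 replication genes (left) and 36 mitotic genes (right) minus its mean over all 6 libraries; each point is 1 gene in 1 library and the bar is the median. Mitotic medians are 0.25, 0.34 and 0.24 in untreated and -0.26, -0.19 and -0.34 in treated libraries, while for replication genes untreated replicate 3 (-0.14) lies below the treated libraries.

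Of 45 further replication genes, 3 fell and 0 rose, or 6.67% lower against 5.13% of all tested genes, with a median log2 change of -0.21. Esco2, which acetylates cohesin in S phase, fell from 3.50 ± 0.680 to 1.17 ± 0.269 FPKM (n = 3 each, SD), a log2 change of -1.05 with SE 0.17 (limma adjusted p = 0.00846). Cdc7, the kinase that fires licensed origins, measured 9.20, 10.6 and 11.9 FPKM untreated and 7.20, 6.91 and 5.25 FPKM treated (-0.64, SE 0.15, limma adjusted p = 0.0351). Samhd1, which degrades deoxynucleotides, fell by 0.47 on the log2 scale (limma adjusted p = 0.0304). At an unadjusted p under 0.05, 15 of the 45 were lower and 1 higher (14.3% and 12.8% of all genes), and the treated values were all below the untreated ones for 37.8%, against 17.3% of all genes. The count of lower calls was 0 without treated replicate 1 and 1 without untreated replicate 2, treated replicate 2 or treated replicate 3. These fits called only 0.664% to 2.37% of all genes lower. The count was 5 without untreated replicate 1 and 6 without untreated replicate 3 (7.23% and 6.31% of all genes). It was 1 with the replicate block and 12 with the length trend removed (2.07% and 9.94% of all genes).

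Among 31 tested regulators of the E2F, RB and DREAM network, 3 cyclins fell and 0 genes rose, or 9.68% lower against 5.13% of all tested genes, with a median of -0.24. Ccnd1, the G1 cyclin upstream of RB, measured 55.8, 65.6 and 62.3 FPKM untreated and 36.4, 36.5 and 40.2 FPKM treated (log2 change -0.68, SE 0.11, limma adjusted p = 0.00995). Ccne2, a cyclin of S-phase entry, and Ccna2, the S and G2 cyclin, fell by 0.93 and 0.58 on the log2 scale (limma adjusted p = 0.0258 and 0.0264). E2f1, the activator, was not called, at 26.0 ± 1.87 and 20.9 ± 0.953 FPKM (n = 3 each, SD), a log2 change of -0.30 with SE 0.11 (limma adjusted p = 0.124). Ccne1, the other cyclin of S-phase entry, and Cdkn1a, the p21 inhibitor of the same kinases, had estimates of -0.26 and -0.29 (limma adjusted p = 0.243 and 0.182). The count of lower calls was 0 without untreated replicate 2 or treated replicate 1, 1 without treated replicate 2, and 1 with no filter or the replicate block. Lower calls over all genes were only 0.664% to 2.07% in these settings. At an unadjusted p under 0.05, 10 of the 31 were lower and 2 higher (14.3% and 12.8% of all genes).

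Of 23 tested genes of S-phase repair and checkpoints, Fanca and Rad51ap1 fell by 0.61 and 0.57 on the log2 scale (limma adjusted p = 0.0402 and 0.0458) and 0 rose, or 8.70% lower against 5.13% of all tested genes. No gene of this list was called lower with no filter, with the replicate block, or without untreated replicate 2 or any 1 of the 3 treated replicates. In these settings only 0.664% to 2.37% of all genes were called lower. Without untreated replicate 3, 1 gene of the list was called lower (6.31% of all genes). The count was 5 without untreated replicate 1 and 5 with the length trend removed (7.23% and 9.94% of all genes). At an unadjusted p under 0.05, limma gave 6 of the 23 lower and 0 higher, and among the mitotic genes 33 of 36 lower and 0 higher. Over all tested genes 14.3% were lower and 12.8% higher at that threshold. Voom called 0 higher in the mitotic, replication, regulator and repair lists.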

How the data were processed

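FPKM values, 1 column per sample, were deposited by the authors in 1 table. FastQC, HISAT2 and the build mm10 are named per the submitters' processing notes. How fragments were counted, with which annotation and strand setting, is not given in the sources used here. Whole fragments were recovered from the steps between FPKM values (22235 of 22235 genes above 0, tolerance 0.005 fragments, exact unless all of a gene's numbers share a divisor), which also gave an implied transcript length. Totals of 21952064 to 26355863 fragments per library limit counting error only.

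The test was limma 3.58.1 (R 4.3.3), applied to log2(FPKM + 1) of genes whose mean reached 1 FPKM, with a variance trend over intensity, no covariate and no further scaling, two-sided, with Benjamini-Hochberg adjustment over 11464 genes. Other settings were pseudocounts of 0.1 and 5, filters, TPM, median-ratio and quantile scaling, other variance estimates, voom on fragments, removal of the length trend (loess, span 0.5), the replicate block and each library left out. The scripts were tested on simulated data. The members and lists were chosen with earlier results of these data known. Named genes are the 42 members, the 4 called genes of smallest p of each other list, and E2f1, Ccne1, Ccnd1 and Cdkn1a. Positions are from GENCODE M21 and promoters from RefSeq. Tables and figures were made in Python 3.11.15 (matplotlib 3.10.9, numpy 2.4.6 and pandas 2.3.3).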

Additional observations from a re-analysis of the deposited data

How the results depend on the processing

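Of the 25 alternatives, 13 gave no call among the 42 genes and 12 gave at least 1, which reached 14 genes in all. The 13 called 0.559% to 6.29% of all genes higher and 0.664% to 5.35% lower. The 12 called 3.84% to 12.0% higher and 5.23% to 10.8% lower. TPM scaling called 1 higher and 3 lower (2.38% and 7.14% of the 42, against 3.84% and 5.23% of all genes), quantile normalization 1 and 4 (2.38% and 9.52% against 6.19% and 5.81%), removal of the length trend 2 and 5 (4.76% and 11.9% against 12.0% and 9.94%), and the length trend with the replicate block 2 and 4 (4.76% and 9.52% against 9.53% and 7.89%). Leaving out 1 library gave 0 to 1 higher and 0 to 5 lower (0.559% to 7.65% and 0.664% to 7.23% of all genes). With the length trend also removed, a setting chosen after seeing the data, 1 to 3 were higher and 1 to 7 lower (6.13% to 11.1% and 5.23% to 10.8% of all genes). The cause was not tested. The median of the 42 genes ran from -0.28 to -0.11 over all libraries left out. Whether replicate numbers pair the samples was not settled. Correlations of same-numbered deviations were -0.14, -0.12 and -0.20. The deviations of untreated replicates 1 and 3 followed transcript length, so these correlations cannot decide it. With the replicate block alone, calls were 0 and 0 for the 42 genes (1.92% higher and 2.07% lower over all genes). Lower calls were then 1 for other replication genes, 1 for E2F, RB and DREAM regulators, 4 for mitotic genes and 0 for repair genes.

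For the other replication genes, quantile normalization gave 1 higher and a median of -0.13, a pseudocount of 5 gave -0.13, the length setting gave 1 higher and 12 lower, and with the replicate block 2 and 8. Leaving out libraries gave 0 to 2 higher and 0 to 11 lower, with medians from -0.24 to -0.15. For the regulators, TPM gave 1 higher and a median of -0.29, quantile normalization 1 higher, 5 lower and -0.15, a pseudocount of 5 a median of -0.14, no filter 1 lower, the length setting 2 higher and with the replicate block 1 higher. Libraries left out gave 0 to 2 higher, 0 to 9 lower and medians from -0.25 to -0.13. Mitotic genes had 4 lower without a filter and 29 lower in both length settings, with medians of -0.60 there, -0.59 with quantile normalization, -0.45 with a pseudocount of 5 and -0.58 with a minimum mean of 5 FPKM. Libraries left out gave 0 to 28 lower and medians from -0.67 to -0.55. Repair genes had 1 lower with TPM, 0 without a filter, 4 with median-ratio scaling, 4 with voom, 5 with the length setting and 4 with the replicate block added. Their medians were -0.40 with a pseudocount of 0.1, -0.14 with 5, -0.20 with a minimum mean of 5 FPKM, -0.18 with quantile normalization, -0.41 with voom and -0.19 in both length settings, and libraries left out gave 0 to 5 lower and -0.34 to -0.14.

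Of the 42 genes, Mcm6 changed sign to 0.003 with median-ratio scaling and to 0.06 in both length settings, Mcm10 and Pold1 to -0.03 with TPM. With libraries left out, the log2 change crossed 0 for Orc6 (-0.29 to 0.005), Mcm5 (-0.17 to 0.05), Mcm6 (-0.13 to 0.18), Cdc45 (-0.01 to 0.27), Gins4 (-0.22 to 0.06), Mcm10 (-0.007 to 0.23), Pold1 (-0.07 to 0.17), Pole2 (-0.25 to 0.003), Rfc3 (-0.28 to 0.04), Rpa2 (-0.16 to 0.06), Fen1 (-0.13 to 0.08) and Uhrf1 (-0.17 to 0.10). Depth limits Cdc45 most, with 42 to 93 fragments per library.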
